A study of Mus musculus with 24 samples.

Results

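Astrocyte reactivity and astrocyte function were followed through 34 genes, taken by symbol from the 22274 genes listed. The 34 genes fell into 4 sets by what they are known for: 8 genes that reactive astrocytes raise after several kinds of insult, 8 that are best known from ischaemia, 4 that are best known from endotoxin, and 14 that mark mature astrocytes or serve their functions. They were chosen with earlier results of these data known, so an excess of calls over the share of all genes may partly reflect that choice. RNA was sequenced from 24 mouse brain samples in 8 groups of 3, with total counts from 15095267 to 17973494 (median 15883699). Pituitary stalk electrical lesion (PEL) destroys the stalk that joins hypothalamus and pituitary, here with a printed knife placed stereotactically and a cathodic current in male C57BL/6J mice. The hypothalamic groups were Sham, PEL at day 3 (PEL_3d), PEL at day 10 (PEL_10d), and the same 3 states with growth hormone, GH (Sham_GH, PEL_3d_GH, PEL_10d_GH). The hippocampal groups were HIP_Sham and HIP_PEL_10d. All Sham groups carry the time label day 0, so time since surgery and the lesion cannot be told apart in a comparison with Sham. The labels give no age and no GH dose, and they do not say whether the 3 samples of a group came from separate animals, so p-values measure the spread between these samples, which may be technical.

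Astrocytes take up glutamate, turn it into glutamine, move water and potassium at their endfeet and share small molecules through gap junctions. After injury they become reactive: they enlarge, build up intermediate filaments such as GFAP and vimentin, and secrete protease inhibitors, cytokines and matrix proteins. In the hypothalamus they also ensheathe the neurosecretory neurons whose axons run through the pituitary stalk.

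Of the libraries, 2 stood apart and went against their labelled tissue. The library labelled Sham 1, a hypothalamic label, had a summed level of 11 hypothalamic neuron genes of 13.3 FPKM (sequenced fragments scaled to transcript length and to library depth), against 1372 and 1432 FPKM in the other Sham libraries. Its choroid plexus genes summed to 14965 FPKM, against 35.5 and 37.1 FPKM. The library labelled HIP_Sham 1, a hippocampal label, had a hypothalamic neuron sum of 1195 FPKM, against 3.73 and 4.91 FPKM in the other HIP_Sham libraries. HIP_Sham 3 is hippocampal by its title and hypothalamic by its tissue label, and its summed hippocampal neuron genes (353 FPKM) lay in the range of the HIP_PEL_10d libraries (303 to 379 FPKM). Sham 1 was left out of the comparisons with Sham, and the values with it are given beside each. The defining astrocyte genes were present in all 24 libraries: Glul ranged from 393 to 590 FPKM, Aldoc from 234 to 554 FPKM, Aqp4 from 33.0 to 202 FPKM, Aldh1l1 from 10.4 to 39.5 FPKM and Sox9 from 4.45 to 10.2 FPKM. Lcn2, Tgm1, Ptx3 and Clcf1 were near 0 in many libraries. In bulk tissue, fewer cells of a type and less RNA per cell cannot be told apart.

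**Figure D1:**
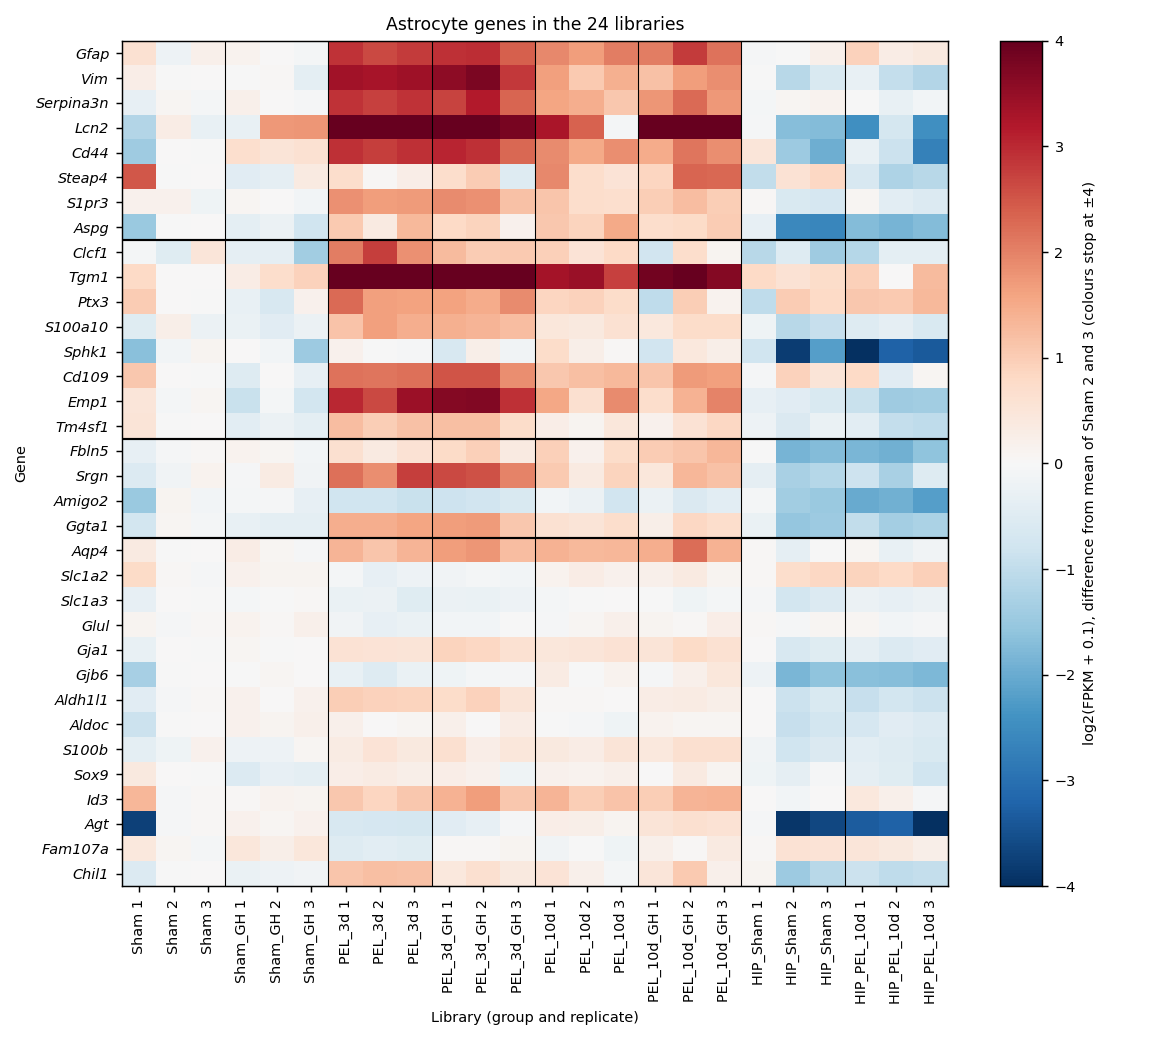
Each row is 1 of the 34 genes and each column 1 of the 24 libraries. Colour gives log2(FPKM + 0.1) minus the mean of Sham 2 and Sham 3, stopping at ±4. The upper 3 blocks are the reactive sets and the lowest block the 14 mature genes. Red fills most reactive rows in the PEL_3d columns and pales in PEL_10d, while the columns labelled Sham 1 and HIP_Sham 1 differ from their groups, for example in Agt.

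Promoter sequence is shown for the 4 reactive genes that rose most at day 3 among those that also rose at day 10 (Tgm1, Vim, Emp1 and Cd44) and for Gfap, the gene by which reactive astrocytes are most often recognised. The 250 bases before the RefSeq start (GRCm38.p6) were searched on both strands for a STAT site (TTCNNNGAA), an AP-1 site (TGANTCA), a cyclic AMP element (TGACGTCA) and a TATA box (TATAAA), and matches are in capitals. Stretches that the annotation places in an untranslated region are left out, so of Vim only 30 bases around its match are shown.
Tgm1, chr14:55713495-55713742, minus strand: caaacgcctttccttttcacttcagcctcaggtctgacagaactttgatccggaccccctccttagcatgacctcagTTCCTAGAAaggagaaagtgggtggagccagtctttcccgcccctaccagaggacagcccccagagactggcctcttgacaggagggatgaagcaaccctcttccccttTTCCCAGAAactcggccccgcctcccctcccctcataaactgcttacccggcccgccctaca
Emp1, chr6:135362708-135362903, plus strand: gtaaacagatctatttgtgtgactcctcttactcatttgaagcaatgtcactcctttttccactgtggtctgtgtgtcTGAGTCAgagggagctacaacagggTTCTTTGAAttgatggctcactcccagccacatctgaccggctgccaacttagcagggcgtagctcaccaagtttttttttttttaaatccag
Vim, chr2:13574267-13574296, plus strand: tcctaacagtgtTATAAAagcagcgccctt
Cd44, chr2:102901666-102901915, minus strand: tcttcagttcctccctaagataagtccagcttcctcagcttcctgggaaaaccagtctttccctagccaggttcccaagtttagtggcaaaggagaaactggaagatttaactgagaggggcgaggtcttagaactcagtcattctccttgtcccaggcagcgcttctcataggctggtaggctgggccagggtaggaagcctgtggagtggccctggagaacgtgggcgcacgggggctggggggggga
Gfap, chr11:102897201-102897450, minus strand: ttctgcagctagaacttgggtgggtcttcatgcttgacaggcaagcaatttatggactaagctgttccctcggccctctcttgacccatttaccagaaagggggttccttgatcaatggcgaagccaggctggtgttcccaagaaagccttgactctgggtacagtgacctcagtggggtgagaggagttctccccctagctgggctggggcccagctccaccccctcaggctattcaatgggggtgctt
The Tgm1 window held 2 STAT matches, beginning 173 and 64 bases before the start. The Emp1 window held 2 STAT matches, at 120 and 22 bases, and 2 AP-1 matches, at 145 and 25 bases, and the matches at 25 and 22 bases overlap each other and lie in the stretch left out. The Gfap window belongs to a RefSeq start 3712 bases inside the outermost annotated start of the gene. The windows of Cd44 and Gfap held none of the 4 patterns. Of the 34 genes, 29 had a promoter entry (Aqp4, Cd109, Clcf1, S100a10 and Sox9 had none). In the window nearest each gene's start, a STAT match stood in 5 of the 29, an AP-1 match in 2, a cyclic AMP element in 0 and a TATA box in 7. Over all 32851 promoter windows of that length the shares were 7.02%, 6.75%, 1.55% and 12.4%.

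At day 3 the lesioned hypothalamus held far more RNA of the reactive sets than Sham, and the mature set split. Of the 34 genes, 24 were higher and 7 lower in PEL_3d than in Sham (edgeR's quasi-likelihood test, Benjamini-Hochberg adjusted p under 0.05 over all genes), where 22.2% of the 14905 genes tested were higher and 18.2% lower (40.5% in either direction). Of the 20 reactive genes 17 rose and 1 fell, with a median log2 fold change of 2.27 against −0.01 over all genes tested. Of the 14 mature genes 7 rose and 6 fell, with a median of 0.17. The 7 lower of the 34 were a share near the 18.2% of all genes.

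Gfap stood at 814, 689 and 772 FPKM in PEL_3d and at 95.4 and 128 FPKM in Sham 2 and 3. All 3 lesioned libraries lay far above both Sham libraries, and above the library labelled Sham 1 (168 FPKM). The log2 fold change was 2.75 ± 0.12 (SE), a 6.72-fold rise (edgeR adjusted p = 1.10e-07). Vim, the partner filament protein vimentin, stood at 328, 318 and 336 FPKM against 31.6 and 32.6 FPKM. Its groups did not overlap and its replicates were close, and the rise was 10.0-fold (log2 3.32 ± 0.07, adjusted p = 1.89e-09).

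Cd44, the receptor for the matrix sugar hyaluronan, stood at 23.4, 20.7 and 23.2 FPKM in PEL_3d against 2.99 and 2.96 FPKM in Sham. It rose 7.70-fold (log2 2.94 ± 0.10, adjusted p = 3.39e-08), with no overlap. Lcn2, lipocalin, a secreted carrier of iron-binding siderophores that neutrophils also make, stood at 9.58, 11.2 and 16.9 FPKM against 0.579 and 0.350 FPKM. Its level was low in Sham, and it rose by 4.72 ± 0.39 on the log2 scale (adjusted p = 7.07e-06). Serpina3n, a secreted protease inhibitor from a cluster of closely related genes that may share reads, rose 7.07-fold, from 36.0 and 31.8 FPKM to 227 to 252 FPKM (adjusted p = 3.39e-08). S1pr3, a receptor for sphingosine-1-phosphate, rose 3.33-fold, and Aspg, an asparaginase, 1.82-fold. Steap4, a metalloreductase, did not pass the test (log2 0.43 ± 0.36, adjusted p = 0.373).

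In the ischaemia set, 7 of 8 genes rose. Tgm1, a transglutaminase that cross-links proteins, had 557 to 794 reads in PEL_3d and 0 in Sham 2 and 3, or 20.3, 14.02 and 16.6 FPKM against 0. Taking the 3 reads per library that a count of 0 allows, it was at least 219-fold higher. It entered the test only through its PEL_3d reads, so its call (edgeR adjusted p = 1.02e-07) is no support beyond those reads. Emp1, a small membrane protein, stood at 23.5, 18.2 and 31.0 FPKM against 2.63 and 3.00 FPKM and rose 8.46-fold (log2 3.08 ± 0.22, adjusted p = 2.61e-06). Ptx3, a secreted pentraxin, rested on few reads, 59 in the 3 PEL_3d libraries and 6 in Sham 2 and 3. The ratio was 6.28 with a 95% interval of 2.72 to 17.8 for counting error alone (exact binomial). Ptx3 too entered the test only through its PEL_3d reads (edgeR adjusted p = 0.0045).

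Cd109, a surface protein that binds transforming growth factor beta, rose 4.68-fold, and Clcf1, a cytokine that signals through gp130, rose 5.05-fold. S100a10, the partner of annexin, rose 2.63-fold, and Tm4sf1, which endothelial cells also make, 2.10-fold. Sphk1, the kinase that makes sphingosine-1-phosphate, stood at log2 −0.03 ± 0.23 and did not pass (adjusted p = 0.936). The receptor S1pr3 thus rose while its ligand's kinase did not pass the test.

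In the endotoxin set, 3 genes rose and 1 fell. Srgn, the core protein of serglycin, which leukocytes store in their granules, stood at 45.8, 35.9 and 67.2 FPKM against 8.94 and 10.9 FPKM and rose 4.97-fold. Ggta1, a galactosyltransferase, stood at 11.6, 11.6 and 12.7 FPKM against 4.40 and 3.97 FPKM and rose 2.91-fold. Fbln5, an elastic fibre protein, rose 1.39-fold. Amigo2, a neuronal and astrocytic adhesion protein, stood at 23.5, 23.2 and 22.0 FPKM against 44.4 and 37.6 FPKM and fell by 0.86 ± 0.08 on the log2 scale (adjusted p = 2.37e-05). All 3 lesioned libraries lay below both Sham libraries for Amigo2, against the direction of the rest of the set.

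Among the mature genes the direction followed no single course. Aqp4, the endfoot water channel, stood at 110, 93.0 and 111 FPKM in PEL_3d against 42.6 and 43.1 FPKM in Sham. It rose 2.43-fold (log2 1.28 ± 0.09, adjusted p = 1.77e-06), with no overlap. Gja1, a gap junction protein, rose 1.45-fold, from 82.3 and 80.5 FPKM to 122, 120 and 117 FPKM (adjusted p = 7.72e-05), while Gjb6, the other astrocyte gap junction gene of the list, fell by 0.36 ± 0.08 (adjusted p = 0.0050). Chil1, a secreted chitinase-like protein, rose 2.28-fold, Id3, an inhibitor of helix-loop-helix factors, 1.99-fold, and Aldh1l1, a folate enzyme used as an astrocyte marker, 1.89-fold. S100b rose less (log2 0.41), a call lost without Sham 2. The transcription factor Sox9 passed narrowly (log2 0.26 ± 0.09, adjusted p = 0.0366), and did not pass by DESeq2, in the fit over all hypothalamic groups, or without PEL_3d 1, PEL_3d 3, Sham 2 or Sham 3.

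3 genes of glutamate handling, grouped after their values were seen, were lower by small amounts. Slc1a2, the main glutamate transporter of the forebrain, stood at 128, 107 and 117 FPKM in PEL_3d against 138 and 132 FPKM in Sham. The groups did not overlap, but the nearest libraries were close, and the fall was 0.23 ± 0.08 on the log2 scale (adjusted p = 0.0328). Slc1a3, the second transporter, fell by 0.35 ± 0.08 (adjusted p = 0.0057). Glul, glutamine synthetase, stood at 445, 393 and 410 FPKM against 479 and 511 FPKM and fell by 0.32 ± 0.07 (adjusted p = 0.0038). The call of Slc1a2 was lost without PEL_3d 2, PEL_3d 3, Sham 2 or Sham 3, that of Slc1a3 without Sham 2, and that of Glul without Sham 3. Agt, the angiotensin precursor, fell furthest of the mature genes, from 108 and 115 FPKM to 72.1, 69.2 and 69.0 FPKM (log2 −0.69 ± 0.06, adjusted p = 1.43e-05). Fam107a fell by 0.48 ± 0.07, and Aldoc, the brain aldolase, did not pass (log2 0.07 ± 0.07, adjusted p = 0.428).

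**Figure D2:**
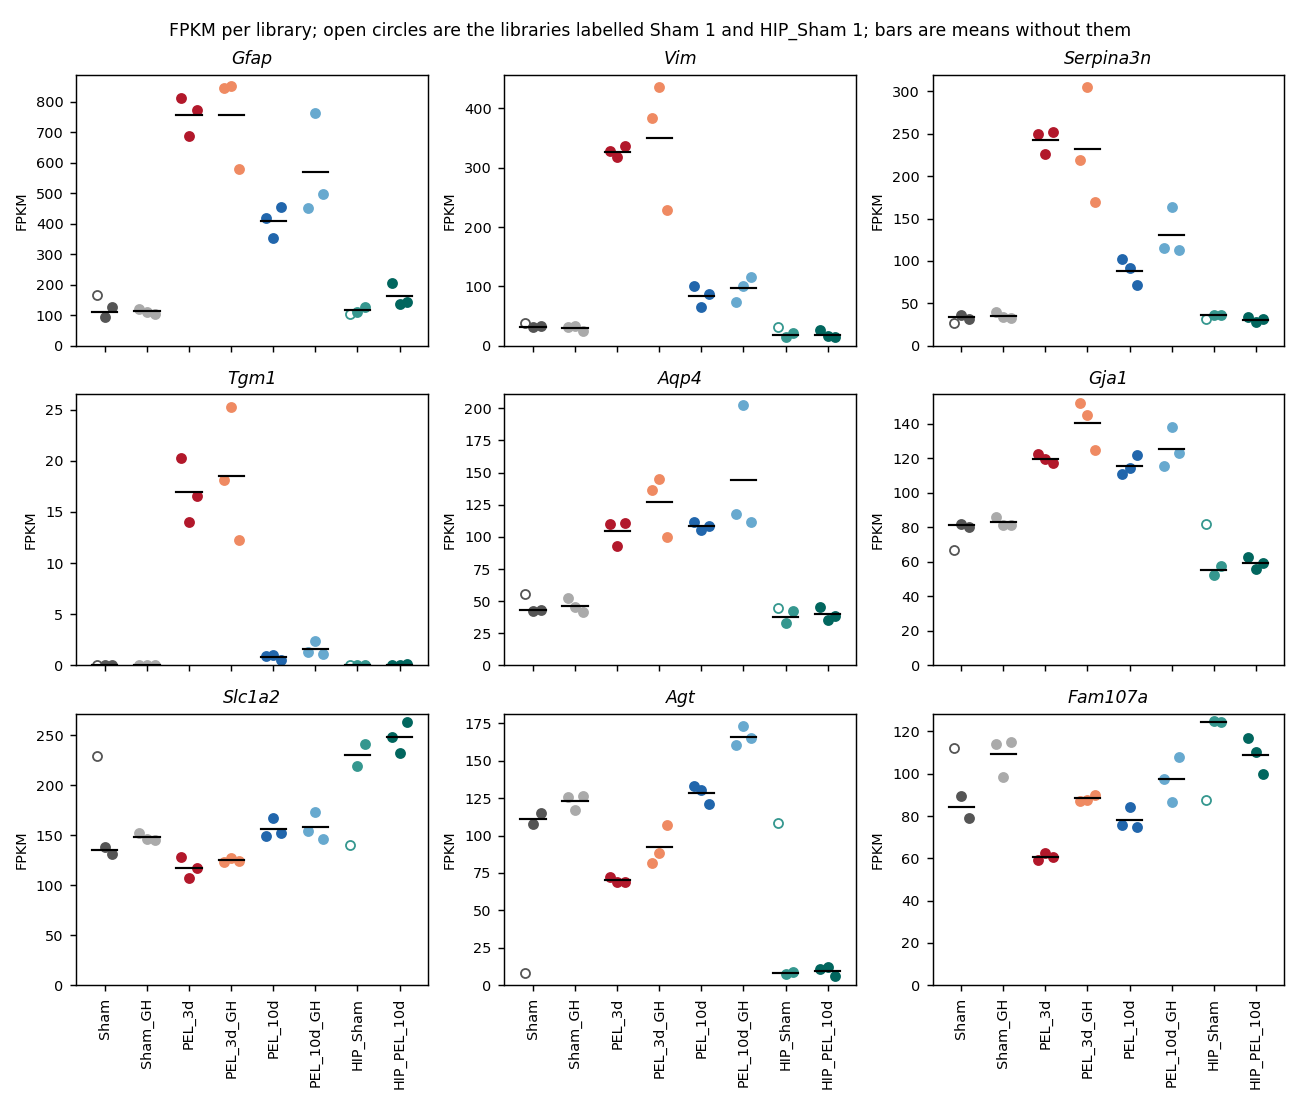
FPKM of 9 genes, 1 point per library, by group. Bars are group means over 3 libraries (2 for Sham and HIP_Sham), and open circles are the libraries labelled Sham 1 and HIP_Sham 1. Gfap, Vim, Serpina3n and Tgm1 peak in the day 3 groups, Aqp4 and Gja1 stay high at day 10, and Agt and Fam107a are lowest in PEL_3d among the hypothalamic groups once the open circles are set aside.

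When Sham 1 was kept in the fit, 18 of the 34 genes rose and 0 fell, where 10.4% of all genes were higher and 1.04% lower (11.4% in either direction). All 18 were among the 24, and the 7 falls were lost. Leaving out any other single library left 25 to 30 of the 31 calls past the threshold. Beside the losses named above, Aspg was lost without PEL_3d 3, Sham 2 or Sham 3, Fbln5 without Sham 2 or Sham 3 and in the fit over all hypothalamic groups, and Gjb6 without Sham 3.

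Further genes of the same biology were taken from lists drawn up with earlier results known. Of 19 other reactive genes tested, 17 rose and 0 fell, led by Timp1, an inhibitor of matrix proteases (log2 4.82 ± 0.22), Thbs1, thrombospondin (4.09 ± 0.55), and Osmr, the oncostatin M receptor (2.80 ± 0.12). Of 16 signals known to induce reactivity, 14 rose and 1 fell, led by the cytokines Il1b (3.61 ± 0.71) and Osm (3.55 ± 0.80) and the complement gene C1qa (3.16 ± 0.13). Of 20 other mature astrocyte genes, 5 rose, 3 fell and 12 did not pass, shares near those of all genes tested (22.2% higher and 18.2% lower), with Ppp1r3c at 0.52 ± 0.09, Slc6a11, a GABA transporter, at −0.50 ± 0.07 and Acsbg1 at 0.41 ± 0.08.

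Markers of other cell types moved beside them. All 10 microglia and macrophage markers were higher in PEL_3d, with a summed level of 912 to 998 FPKM against 156 to 164 FPKM in Sham 2 and 3. Of 10 endothelial and pericyte markers 8 were higher, of 10 fibroblast and meningeal markers 7 were higher and 1 lower, and of 5 neutrophil markers tested 4 were higher. Of 10 neuron markers 8 were lower, of 11 hypothalamic neuron markers 6 were lower and 1 higher, of 10 choroid plexus markers 4 were lower and 1 higher, and of 10 tanycyte and ependymal markers 3 were lower and 1 higher. Their part in the astrocyte results was not tested.

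**Figure D3:**
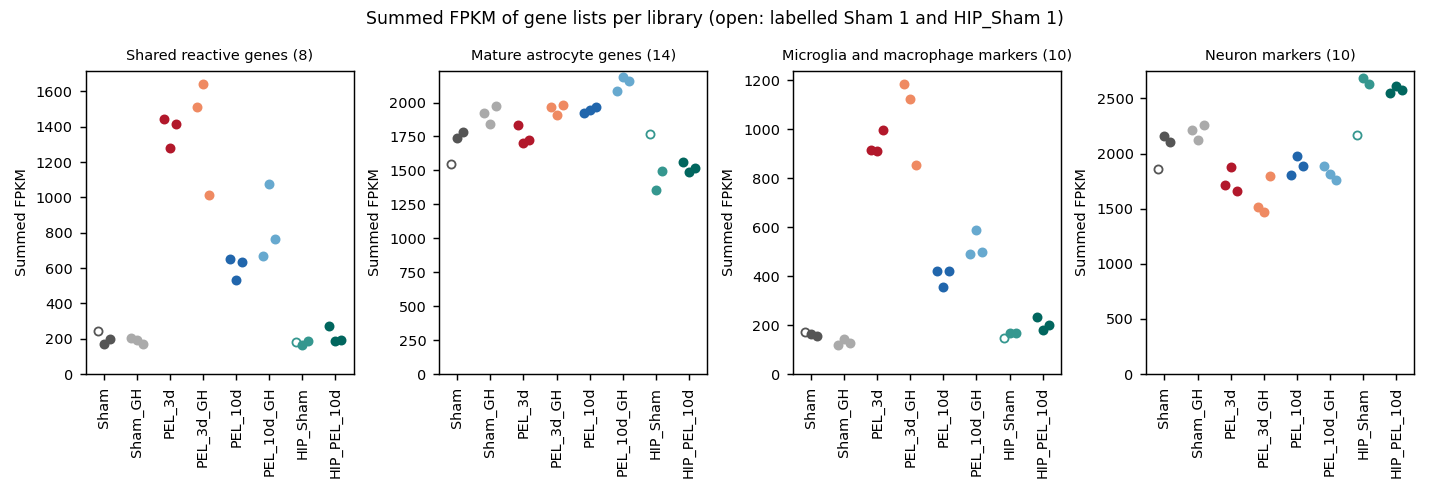
Summed FPKM per library of the 8 shared reactive genes, the 14 mature astrocyte genes, 10 microglia and macrophage markers and 10 neuron markers, by group, with the libraries labelled Sham 1 and HIP_Sham 1 as open circles. The shared reactive sum reached 1279 to 1441 FPKM in PEL_3d and 535 to 650 FPKM in PEL_10d, and the microglia sum followed the same order, while the mature sum stayed between 1702 and 1964 FPKM in those groups.

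At day 10 fewer genes differed from Sham and those that did were higher. Of 33 genes tested (Ptx3 was too low), 13 were higher and 0 lower in PEL_10d, where 7.97% of 14801 genes were higher and 1.43% lower (9.4% in either direction). The 13 were Gfap, Vim, Serpina3n, Cd44, S1pr3, Aspg, Tgm1, Cd109, Emp1, Ggta1, Aqp4, Gja1 and Id3. The median log2 fold change over the 19 reactive genes tested was 0.94, and over the 14 mature genes 0.17, against −0.01 over all genes.

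Gfap stood at 418, 355 and 454 FPKM in PEL_10d, above both Sham libraries in each sample, a 3.62-fold rise (log2 1.86 ± 0.14, edgeR adjusted p = 2.71e-04). Vim stood at 100, 65.9 and 86.8 FPKM and rose 2.56-fold (adjusted p = 0.0017). Cd44 stood at 11.2, 8.72 and 11.1 FPKM and rose 3.57-fold (adjusted p = 2.71e-04). None of the 3 genes overlapped with Sham. Tgm1 still had 24 to 46 reads per library against 0 in Sham 2 and 3, at least 11.6-fold higher. It entered the test only through its PEL_10d reads, so its call among the 13 (edgeR adjusted p = 0.0030) is no support beyond those reads. At a mean count of at least 50 it dropped out, and the other 12 passed. Emp1 (4.48 to 10.6 FPKM) rose 2.72-fold and Cd109 (3.24 to 3.82 FPKM) 2.34-fold.

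Aqp4 stood at 112, 105 and 108 FPKM and rose 2.49-fold (log2 1.32 ± 0.06, adjusted p = 7.57e-05). Its replicates lay within a few FPKM of each other and well above Sham. Id3, at 37.4, 28.4 and 32.2 FPKM against 13.8 and 15.0 FPKM, rose 2.23-fold (adjusted p = 0.0015), and Gja1, at 111, 115 and 122 FPKM, 1.38-fold (adjusted p = 0.0054).

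The 3 genes of glutamate handling did not pass the test at day 10. Slc1a2 stood at 149, 167 and 153 FPKM (log2 0.19 ± 0.08, adjusted p = 0.180), Glul at 483, 518 and 570 FPKM (log2 0.00 ± 0.08, adjusted p = 0.984) and Slc1a3 at log2 −0.04 ± 0.06. Lcn2 was uneven between replicates, at 5.26, 2.75 and 0.426 FPKM, so that 2 libraries lay above Sham and 1 within its range, and did not pass (log2 2.56 ± 0.92, adjusted p = 0.125). It passed without PEL_10d 3, and DESeq2 called it together with S100b and Srgn, 16 genes in all. Steap4, at 1.87, 0.761 and 0.659 FPKM against 0.420 and 0.427 FPKM, did not pass either (adjusted p = 0.130).

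When Sham 1 was kept, 4 genes rose and 0 fell (Gfap, Vim, Serpina3n and Aqp4), where 1.81% of all genes were higher and 0.0274% lower (1.84% in either direction). Without Sham 2, and again without Sham 3, 8 of the 13 passed in each case, and Aspg, S1pr3, Emp1, Ggta1 and Gja1 did not.

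Of the 19 other reactive genes, 14 were higher at day 10, led by complement C3 (log2 2.63 ± 0.27), the chemokine Cxcl10 (2.45 ± 0.56) and the immunoproteasome subunit Psmb8 (2.11 ± 0.26). Of 15 inducing signals 7 were higher, led by Il1a (2.63 ± 0.41), C1qa (2.12 ± 0.13) and Cntf (1.71 ± 0.29). Of 20 other mature genes 2 were higher, Clu (0.53 ± 0.07) and the adhesion gene Hepacam (0.29 ± 0.07), a share near the 7.97% of all genes. Microglia and macrophage markers summed to 358 to 421 FPKM, with 7 of 10 higher than in Sham. Also higher were 8 of 10 fibroblast and meningeal, 4 of 10 oligodendrocyte and 2 of 10 endothelial and pericyte markers, and lower were 3 of 11 hypothalamic neuron and 2 of 10 neuron markers. Their part was not tested.

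PEL_10d was then set against PEL_3d, a comparison that rests on no Sham library. Of the 34 genes, 17 were lower and 7 higher at day 10, where 12.2% of 14807 genes were lower and 6.33% higher (18.5% in either direction). Of the 20 reactive genes 15 fell, and the 1 that rose was Amigo2 (log2 0.49 ± 0.14, adjusted p = 0.0361). The largest falls were of Tgm1 (log2 −4.23 ± 0.19, edgeR adjusted p = 2.92e-06), Lcn2 (−2.15 ± 0.53), Vim (−1.96 ± 0.13) and Emp1 (−1.63 ± 0.28). Gfap fell less, by 0.88 ± 0.10 (adjusted p = 3.95e-04). The reactive genes thus differed in how far they came down: Tgm1 went from 14.02 to 20.3 FPKM to 0.571 to 0.991 FPKM, whereas Gfap kept 355 to 454 of its 689 to 814 FPKM.

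Of the mature genes 6 rose between the times and 2 fell. The 6 were Slc1a2 (0.43 ± 0.08), Slc1a3 (0.32 ± 0.08), Glul (0.33 ± 0.08), Gjb6 (0.51 ± 0.09), Agt (0.88 ± 0.06) and Fam107a (0.38 ± 0.07), and each had been below Sham at day 3. Aldh1l1 fell by 0.89 ± 0.06 and Chil1 by 0.93 ± 0.14, both having been above Sham at day 3. The PEL_3d libraries serve in both comparisons, which by itself favours opposite directions in them. Aqp4 (0.04 ± 0.08, adjusted p = 0.748), Gja1 (−0.06 ± 0.06) and Id3 (0.17 ± 0.11) did not pass the test between the times. Over the same interval all 10 microglia and macrophage, 5 of 10 endothelial and pericyte and 2 of 5 tested neutrophil markers fell, 4 of 10 choroid plexus markers rose, 9 of 10 oligodendrocyte markers rose and 1 fell, and of 10 neuron markers 2 rose and 1 fell. Their part was not tested. Leaving out single libraries left 19 to 22 genes past the threshold. Ptx3 was lost in all 6 of these fits, and Amigo2 in all but the one without PEL_10d 3. Lcn2 was lost without PEL_10d 2 or PEL_3d 3, and with Ptx3 it did not pass by DESeq2. Slc1a3 was lost without PEL_10d 2, PEL_10d 3 or PEL_3d 3, and Glul without PEL_10d 3, PEL_3d 2 or PEL_3d 3.

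The lesion was repeated in mice given GH, with other libraries on both sides. At day 3, 24 of the 34 genes were higher and 5 lower in PEL_3d_GH than in Sham_GH, where 26.9% of 14743 genes were higher and 25.2% lower (52.1% in either direction). The 24 that rose were the 24 that rose without GH (100% of each list). How often calls repeated over all genes was not counted, so the repeat cannot be called particular to these genes. The 5 that fell, Amigo2, Slc1a2, Slc1a3, Agt and Fam107a, were 71.4% of the 7 that fell without GH, and Glul (log2 −0.19) and Gjb6 (−0.15) did not pass. As a share of the 34, the falls were fewer than the 25.2% of all genes. Gfap stood at 845, 851 and 580 FPKM in PEL_3d_GH against 122, 112 and 104 FPKM in Sham_GH, with no overlap (log2 2.73 ± 0.14, edgeR adjusted p = 5.75e-07). PEL_3d_GH 3 was the lowest of its group for Gfap, and also for Vim (383, 436 and 229 FPKM) and Tgm1 (18.1, 25.2 and 12.3 FPKM).

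Emp1, at 37.2, 37.7 and 22.1 FPKM, rose by 4.03 ± 0.25 on the log2 scale, and Aqp4, at 136, 145 and 100 FPKM, by 1.42 ± 0.13. Tgm1 had 2337 reads in the 3 PEL_3d_GH libraries and 8 in the 3 Sham_GH libraries, a ratio of 289 with a 95% interval of 146 to 670 for counting error. With 1 to 4 reads per Sham_GH library, it entered the tests against Sham_GH only through the lesioned libraries. Of the markers of other cell types, 10 of 10 for microglia and macrophages (853 to 1186 FPKM summed, against 119 to 143 FPKM in Sham_GH), 8 of 10 for fibroblasts and meninges, 7 of 10 for endothelium and pericytes and 2 of 3 tested for neutrophils were higher, and 9 of 10 for neurons lower. Of 10 tanycyte and ependymal markers 3 were higher and 1 lower. Of 11 hypothalamic neuron markers 1 was higher and 4 lower, and of 10 choroid plexus markers 1 was higher and 4 lower. Their part was not tested.

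At day 10, 23 of 32 genes tested (Clcf1 and Ptx3 were too low) were higher and 1, Amigo2, lower in PEL_10d_GH than in Sham_GH, where 17.7% of 14686 genes were higher and 13.3% lower (30.9% in either direction). The 13 that rose without GH were all among them, 100% of that list and 56.5% of the 23. Here too, how often calls repeated over all genes was not counted. The other 10 were Agt, Chil1, Fbln5, Lcn2, S100a10, S100b, Sox9, Srgn, Steap4 and Tm4sf1, of which DESeq2 called Lcn2, S100b and Srgn without GH too. Gfap stood at 452, 764 and 498 FPKM (log2 2.32 ± 0.17, adjusted p = 1.33e-05). Lcn2, at 11.5, 17.9 and 13.8 FPKM against 0.349, 1.75 and 1.76 FPKM, rose by 3.44 ± 0.36 (adjusted p = 1.05e-04). All 3 lesioned libraries lay well above Sham_GH for Lcn2, unlike the 1 low library of PEL_10d. All 4 neutrophil markers tested were also higher, with a summed level of all 8 of 14.2 to 41.9 FPKM against 2.50 to 5.29 FPKM in Sham_GH. Higher too were 10 of 10 microglia and macrophage markers (492 to 589 FPKM summed, against 119 to 143 FPKM), 10 of 10 for oligodendrocytes, 8 of 10 for fibroblasts and meninges and 6 of 10 for endothelium and pericytes, while 8 of 10 neuron markers were lower. Of 10 tanycyte and ependymal markers 4 were higher and 3 lower. Of 11 hypothalamic neuron markers 2 were higher and 3 lower, and of 10 choroid plexus markers 1 was higher and 2 lower. Their part was not tested. The library PEL_10d_GH 3 held 5479 FPKM of Pomc, a hormone precursor made in the pituitary and the arcuate nucleus, against 10.4 to 80.2 FPKM in the other hypothalamic libraries with Sham 1 set aside. Without it, 23 of the 24 calls passed, and Amigo2 did not. Amigo2 was also lost without PEL_10d_GH 2, Sham_GH 1 or Sham_GH 2, in the fit over all hypothalamic groups and at a mean count of at least 50.

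**Figure D4:**
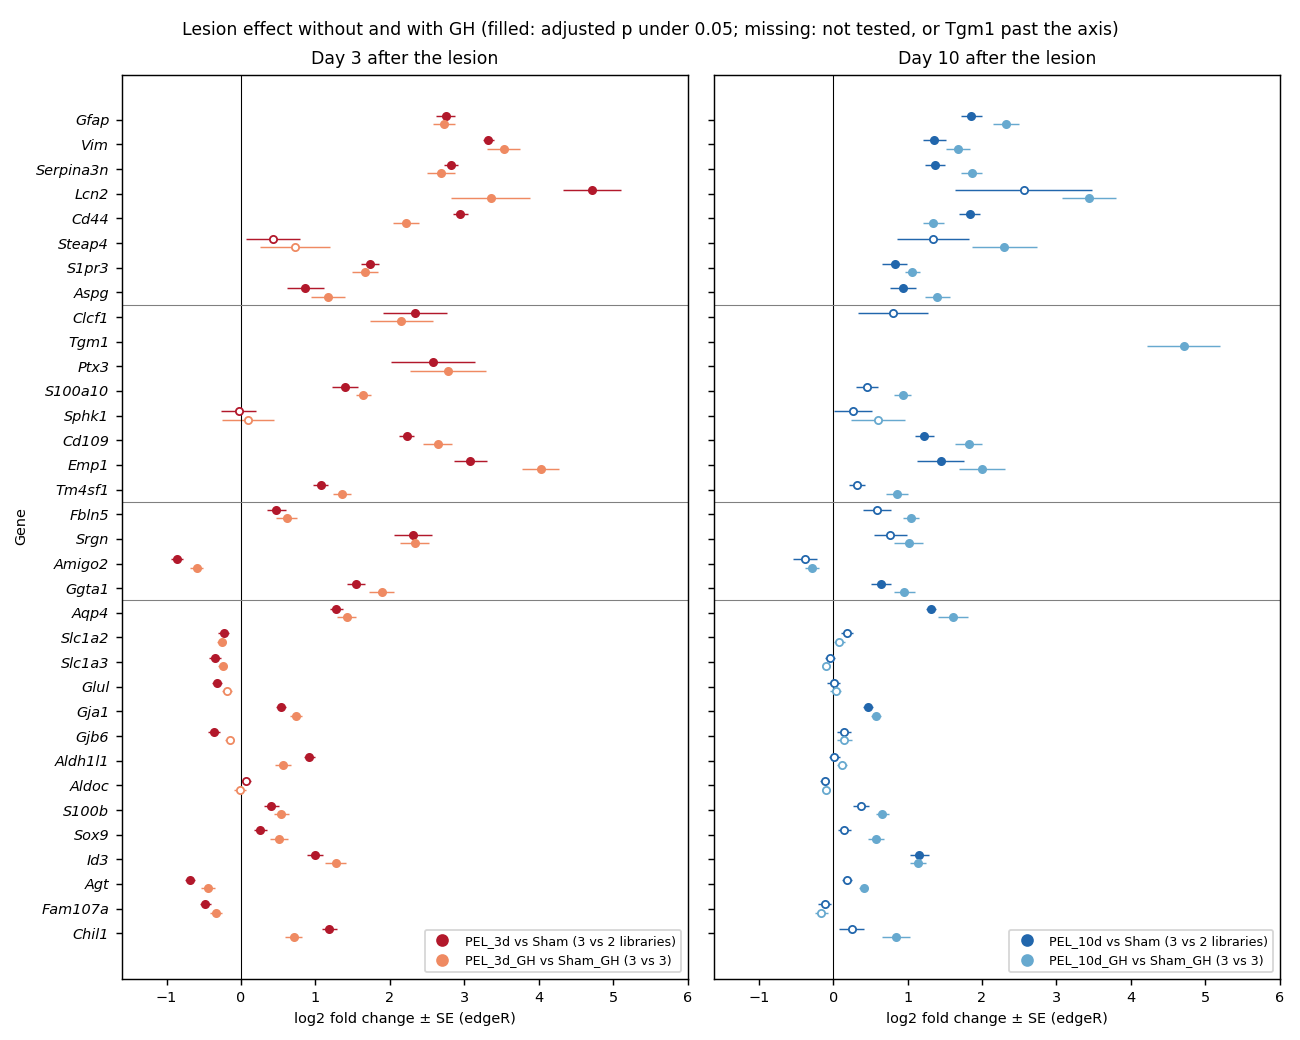
log2 fold change ± SE (edgeR) of the 34 genes at day 3 (left) and day 10 (right), without GH (dark) and with GH (light). Filled points passed an adjusted p of 0.05; a missing point was not tested, or is Tgm1 beyond the axis. The light and dark points lie close together at day 3, and at day 10 more of the light points are filled.

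A call in one setting and not in the other is not a difference between them, so the difference was tested as an interaction of GH and lesion. At day 3, 0 of the 34 genes passed (7 of 15164 genes did, 0.0462%, 0.00659% with a more positive and 0.0396% with a more negative lesion effect under GH), and at day 10, 0 passed (0 of 15116 genes, 0%, by edgeR, with 1366 genes at an unadjusted p under 0.05). DESeq2 also called 0 of the 34 genes at each time. For Gfap the interaction was −0.02 ± 0.20 at day 3 and 0.46 ± 0.25 at day 10 (adjusted p = 0.984 and 0.624). With Sham 1 the counts were again 0 and 0. Without PEL_3d_GH 3, 1 gene passed at day 3, Cd44 (log2 −0.53, adjusted p = 0.0308).

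GH itself was compared within each state, where 0 to 2 of the astrocyte genes passed. At day 3 after the lesion 1 gene, Fam107a, was higher with GH, and 0 were lower, where 0.027% of 14798 genes were higher. Fam107a, an actin-binding gene of mature astrocytes, stood at 87.1, 87.8 and 90.04 FPKM in PEL_3d_GH against 59.2, 62.4 and 60.6 FPKM in PEL_3d. The groups were tight and far apart (log2 0.55 ± 0.06, edgeR adjusted p = 0.0469). That call was lost when any library other than PEL_3d_GH 3 was left out. DESeq2 added Chil1 (11.7, 13.7 and 11.5 FPKM against 19.1, 20.3 and 19.6 FPKM), which edgeR put at log2 −0.67 ± 0.10 (adjusted p = 0.116).

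At day 10 after the lesion 0 of 33 genes tested passed (0 of 14763 genes, 0%, by edgeR, with 906 at an unadjusted p under 0.05), and DESeq2 called 1, Agt. Of the 33, 27 had a log2 difference above 0, with a median of 0.18 against 0.001 over all genes. At an unadjusted p under 0.05, 9 of the 33 were higher with GH and 0 lower, where 550 of 14763 genes were higher and 356 lower. Of the 10 microglia and macrophage markers 6, of the 10 oligodendrocyte markers 7 and of the 4 neutrophil markers tested 3 were also higher at that level, and their part was not tested. Agt stood at 160, 173 and 165 FPKM in PEL_10d_GH against 133, 131 and 121 FPKM in PEL_10d, with no overlap (log2 0.38 ± 0.06, edgeR adjusted p = 0.350). Gfap differed by 0.49 ± 0.18 on the log2 scale (adjusted p = 0.791) and Aqp4 by 0.42 ± 0.20.

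In Sham mice 2 of 31 genes tested were higher with GH and 0 lower, where 0.798% of 14539 genes were higher and 0.296% lower (1.09% in either direction). They were Cd44, at 4.82, 4.33 and 4.56 FPKM against 2.99 and 2.96 FPKM (log2 0.64 ± 0.12, adjusted p = 0.0249), and Fam107a, at 114, 98.5 and 115 FPKM against 89.6 and 79.2 FPKM (0.39 ± 0.08, adjusted p = 0.0460). With the library labelled Sham 1 (Cd44 1.06 FPKM, Fam107a 112 FPKM) 0 passed, and 0 passed without Sham 2, Sham 3, Sham_GH 1 or Sham_GH 3. Gfap, at 104 to 122 FPKM with GH, differed by 0.03 ± 0.10 (adjusted p = 0.911).

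In the hippocampus at day 10, 0 of 29 genes tested passed in HIP_PEL_10d against all 3 HIP_Sham libraries (0 of 14039 genes, 0%, by edgeR, with 1434 at an unadjusted p under 0.05), and DESeq2 called 0 of them. Without HIP_Sham 1, 1 gene was higher and 2 lower, where 2.09% of 14191 genes were higher and 4.07% lower (6.15% in either direction). These counts are near the shares of all genes, so they are no result about the astrocyte genes as a set. Slc1a3 rose by 0.33 ± 0.07 (162, 152 and 163 FPKM against 116 and 132 FPKM), Steap4 fell by 2.19 ± 0.37 (0.239, 0.123 and 0.141 FPKM against 0.682 and 0.829 FPKM) and Amigo2 fell by 0.63 ± 0.09. The groups did not overlap for any of the 3, but these were named because they passed, so this adds no support. Gfap stood at 208, 137 and 144 FPKM in HIP_PEL_10d against 110 and 128 FPKM in HIP_Sham 2 and 3 and 106 FPKM in the library labelled HIP_Sham 1. All 3 lesioned libraries were above the Sham libraries, and the difference did not pass (log2 0.43 ± 0.16, adjusted p = 0.159 without HIP_Sham 1, and 0.54 ± 0.21, adjusted p = 0.484 with it). Aqp4 (35.1 to 45.1 FPKM against 33.0 and 42.6 FPKM) and Vim (14.1 to 26.2 FPKM against 14.7 and 21.1 FPKM) overlapped.

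Choroid plexus markers also differed between these groups, at 4379 and 5481 FPKM in HIP_Sham 2 and 3, 30.2 FPKM in HIP_Sham 1 and 46.6 to 810 FPKM in HIP_PEL_10d. With HIP_Sham 1 left out, 9 of these 10 markers were lower in HIP_PEL_10d. Their part was not tested.

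The lesion effect at day 10 was compared between the tissues by an interaction term, with Sham 1 and HIP_Sham 1 left out. Of 33 genes tested, 10 had a more positive and 2 a more negative log2 change in hypothalamus than in hippocampus, where 6.52% of 15053 genes were more positive and 4.22% more negative (10.7% in either direction). The 10 were Gfap (difference of log2 changes 1.40 ± 0.24, edgeR adjusted p = 0.0049), Vim (1.31 ± 0.33), Serpina3n (1.60 ± 0.18, adjusted p = 5.00e-04), Steap4 (3.51 ± 0.68), Tgm1, Cd109 (1.76 ± 0.40), Emp1 (2.17 ± 0.45), Aqp4 (1.23 ± 0.15, adjusted p = 7.84e-04), Gja1 (0.36 ± 0.10) and Id3 (0.91 ± 0.20). The 2 were Slc1a3 (−0.41 ± 0.09) and Aldoc (−0.40 ± 0.11). Tgm1 entered the test only through its 24 to 46 reads in PEL_10d, against 0 to 4 reads in the other libraries. Its fitted difference of 8.42 gives no size, and it is no support for a difference between the tissues; 9 more positive genes remain without it. Steap4 stood at log2 1.34 in hypothalamus, where it did not pass, and at −2.19 in hippocampus. Its levels were low, 0.123 to 0.829 FPKM in the hippocampal libraries used, and its interaction call was lost at a mean count of at least 50.

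With both libraries in the fit 1 of the 12 passed, Serpina3n (log2 1.57), where 0.63% of all genes passed, and Aldoc changed sign to 0.09. Of the 12, 4 passed without Sham 2, 5 without Sham 3, 6 without HIP_Sham 2 and 7 without HIP_Sham 3, and Aqp4, Gfap, Serpina3n and Steap4 did so in each of these 4 fits. Both HIP_Sham 2 and HIP_Sham 3 held much choroid plexus RNA (4379 and 5481 FPKM), so leaving out 1 of them does not remove that difference. Steap4 stood at 0.682 to 0.829 FPKM in them and at 0.167 FPKM in HIP_Sham 1. Beside the astrocyte genes, 9 of 10 choroid plexus, 7 of 10 microglia and macrophage and 6 of 10 fibroblast and meningeal markers had a more positive change in hypothalamus and 3 of 10 neuron markers a more negative one, and their part was not tested.

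**Figure D5:**
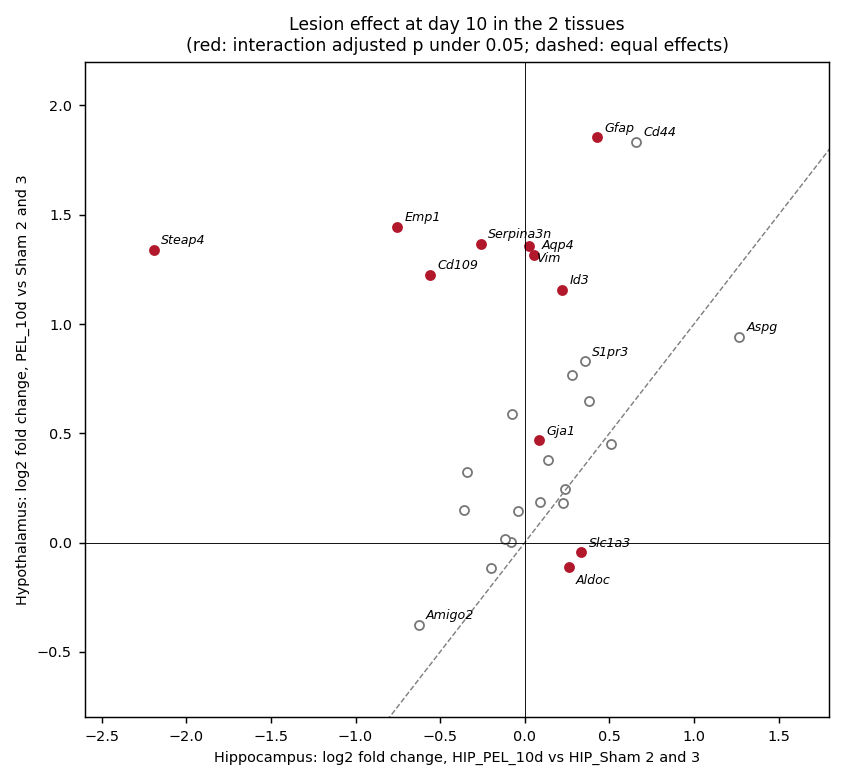
Each point is a gene, with its log2 fold change at day 10 in hippocampus (x axis, HIP_Sham 2 and 3 as control) and hypothalamus (y axis, Sham 2 and 3 as control). Red points passed the interaction test and the dashed line marks equal effects. Gfap, Vim, Serpina3n and Aqp4 lie high above the line, and Slc1a3 and Aldoc below it; Tgm1 was not tested in hippocampus and is not drawn.

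The tissues differed in the levels of mature genes, given here as a description with no test. Agt stood at 108 and 115 FPKM in Sham 2 and 3 and at 7.49 and 8.83 FPKM in HIP_Sham 2 and 3. Gjb6 stood at 47.3 and 48.6 FPKM against 13.4 and 15.6 FPKM, and Slc1a2 at 138 and 132 FPKM against 220 and 241 FPKM. Hypothalamic Sham libraries were thus higher in Agt and Gjb6 and lower in Slc1a2. The library labelled Sham 1 lay near the hippocampal levels (Agt 8.29, Gjb6 18.9, Slc1a2 229 FPKM), and the library labelled HIP_Sham 1 near the hypothalamic ones (Agt 108, Gjb6 42.1, Slc1a2 140 FPKM).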

How the data were processed

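Per the labels, total RNA was extracted with an RNeasy mini plus kit and libraries were made with a SMARTER mRNA-Seq kit; the submitters' processing notes name GRCm38 (mm10). Per the study's methods, the authors aligned reads with Hisat2, counted them with featureCounts and tested with DESeq2, leaving out 1 outlying hypothalamic Sham library. The deposited table holds estimated counts per gene (8.22% of values are not whole numbers within 1e-06 and were rounded) and FPKM values, which the authors normalized for gene length and depth; FPKM was used for levels only. Of the 22274 gene identifiers, 22219 matched a symbol.

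Counts were tested with edgeR 4.0.16 (R 4.3.3): quasi-likelihood test, TMM scaling, filterByExpr with a minimum count of 10, Benjamini-Hochberg adjustment over all genes tested, threshold 0.05, in pairwise fits of the groups compared, or over the 4 groups of an interaction. SE was derived from the fold change and the F statistic. The fits were tested on simulated data. Alternatives were DESeq2 1.42.0, its size factors in edgeR, no filter, a mean count of at least 50, 1 fit over all groups of the tissue, the replicate number as a block, the libraries that stand apart kept in, and leaving out each library. The members and lists were chosen with earlier results of these data known. All 34 genes may be named; values per library are given for up to 3 genes a set with the largest change from Sham and for Gfap, Aqp4, Slc1a2, Glul and Gja1, up to 3 genes are named from each further list, and values are also given for Agt, Fam107a, Steap4, Serpina3n, Slc1a3, Gjb6 and Chil1 by choice after their values were seen. Intervals and the floor of 3 counts cover counting error only. Positions are GRCm38, and promoters are from RefSeq.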

Additional observations from a re-analysis of the deposited data

Results flagged for a closer look

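In the interaction test of the lesion effect at day 10 between hypothalamus and hippocampus, 12 of the 33 genes tested passed. Over all genes, 10.7% of 15053 passed in either direction. Tgm1, 1 of the 12, entered only through its reads in PEL_10d and is no support for a difference. Steap4, whose levels were low, was lost with Tgm1 at a mean count of at least 50. The differences of log2 changes, hypothalamus minus hippocampus, were 1.40 for Gfap, 1.31 for Vim, 1.60 for Serpina3n, 3.51 for Steap4, 1.76 for Cd109, 2.17 for Emp1, 1.23 for Aqp4, 0.36 for Gja1, 0.91 for Id3, −0.41 for Slc1a3 and −0.40 for Aldoc. The fitted value of 8.42 for Tgm1 is set against libraries with 0 to 4 reads and gives no size. With the libraries labelled Sham 1 and HIP_Sham 1 kept in, Serpina3n was the 1 that passed, and Aldoc changed sign to 0.09. Choroid plexus, microglia, fibroblast and neuron markers differed in the same contrast, and their part was not tested.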

How the results depend on the processing

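Counts of the 34 genes past the threshold stayed within 1.5 times under DESeq2's size factors, no filter and a mean count of at least 50. Keeping the library labelled Sham 1 gave 18 genes at day 3, 4 at day 10 and 0 for Sham_GH against Sham, and keeping both libraries gave 1 for the tissue interaction. DESeq2 gave 2 genes for PEL_3d_GH against PEL_3d and 1 for PEL_10d_GH against PEL_10d, and 1 fit over all hypothalamic groups gave 0 for Sham_GH against Sham. Leaving out 1 library at a time gave 25 to 30 genes for PEL_3d against Sham, 8 to 16 for PEL_10d against Sham, 0 to 2 for PEL_3d_GH against PEL_3d and for Sham_GH against Sham, 0 to 3 in hippocampus, 4 to 14 for the tissue interaction and 0 to 1 for the GH interaction at day 3. The lone Sham library is then assumed to vary like the other group. Same-numbered libraries did not deviate together in every pair (correlations −0.292 to 0.224), so the number is only a name; with the replicate block, 0 genes passed for PEL_3d_GH against PEL_3d, 17 for PEL_10d against Sham, and Sox9 did not pass for PEL_3d against Sham.

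Of single-gene values, 2058 kept direction and side of the threshold, 147 lost it, 25 gained it and 26 changed sign. With Sham 1, Steap4 was −1.14 and Sphk1 0.37 at day 3, and at day 10 Steap4 was −0.23, Slc1a2 −0.14, Slc1a3 0.037, Glul −0.076, Aldoc 0.12 and Sox9 −0.021; Aldoc in the tissue interaction was 0.094. With a mean count of at least 50, Aldoc was 0.020 at day 3 with GH. Over fits that left out 1 library, Sphk1 ranged from −0.234 to 0.209 at day 3 without GH and from −0.205 to 0.399 with GH, Aldoc from −0.0675 to 0.0548 at day 3 with GH, and Glul from −0.0606 to 0.0579 at day 10 without GH and from −0.0324 to 0.0924 with GH. Aldh1l1 ranged from −0.0265 to 0.0607 at day 10, and between the times Aspg ranged from −0.115 to 0.266, Fbln5 from −0.021 to 0.306, Aqp4 from −0.041 to 0.0916 and S100b from −0.0902 to 0.0431. Of the values that changed sign, 1 had passed the test, that of Aldoc in the tissue interaction, and the cause was not tested. Depth limits Ptx3, Clcf1, Tgm1 in Sham, and Lcn2 in hippocampus, whose counts were low.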
